A study of Mus musculus with 6 samples.

Results

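The genes described here are 39 that encode NRF2 (gene symbol Nfe2l2), its inhibitor KEAP1, and enzymes that make or use glutathione, thioredoxin and NADPH to handle peroxides, superoxide, quinones and other electrophiles. They are given by name, and no measured value enters the rule. All 39 were found among the 24214 RefSeq genes and other features counted in each sample, and 37 of them had enough reads to be tested among 13892 features. RNA came from 393P, an epithelial murine LUAD (lung adenocarcinoma) cell line that the labels describe as KP lung cancer cells of strain C57BL/6. 393P_vector cells carried an empty vector and 393P_ZEB1 cells carried ectopic ZEB1, a transcription factor that represses epithelial genes and drives epithelial-to-mesenchymal transition (EMT). Both were transfectants grown in the same serum-containing medium, with no other treatment named, and the study's methods describe antibiotic selection of stable transfectants. Each group had 3 samples, and nothing states whether these came from separate transfections or cultures, so p-values measure the spread between these samples, which may be technical.

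NRF2 is held in the cytoplasm by KEAP1, which directs it to degradation, until oxidants or electrophiles modify KEAP1. NRF2 then enters the nucleus, pairs with small MAF proteins and binds antioxidant response elements (AREs) of genes for glutathione synthesis, thioredoxin reduction and detoxification. Because KEAP1 acts on the NRF2 protein, the mRNA of Nfe2l2 is not a measure of NRF2 activity, and lung adenocarcinomas often carry mutations in this pathway.

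Total counts ranged from 57844355 to 79158012 in 393P_vector and from 54442450 to 61251074 in 393P_ZEB1, and levels are given as CPM, read counts per 1000000 reads of the normalized library size, with 3 counts equal to 0.0361 to 0.0561 CPM. Zeb1 stood at 21.2, 22.0 and 21.4 CPM in 393P_vector replicates 1 to 3 and at 54.9, 48.9 and 51.3 CPM in 393P_ZEB1 replicates 1 to 3, a rise of 1.26 on the log2 scale (SE 0.10, adjusted p = 6.1e-05). The median log2 fold change over all tested genes of the chromosome that holds Zeb1 was 0.64. Relative to that median, Zeb1 differed by 0.63. The part of this chromosome-wide shift in the rise of Zeb1 was not tested. Of 7 epithelial markers, 6 were lower in 393P_ZEB1, where their summed level was 2746 to 3043 CPM against 4713 to 5374 CPM, and all 7 mesenchymal markers were higher, with 11086 to 12319 CPM against 7835 to 8673 CPM. The cells showed little of a differentiated lung identity. Of 6 alveolar and airway markers, 5 (Nkx2-1, Sftpc, Sftpb, Sftpa1 and Scgb1a1) stayed under 1 CPM in every sample. The other, Foxj1, had 2.65, 2.75 and 2.97 CPM in 393P_vector and 0.206, 0.090 and 0.262 CPM in 393P_ZEB1. It was lower there by a log2 fold change of -3.89 (edgeR, adjusted p = 7.3e-05). Summed markers of fibroblasts (6 genes), leukocytes (5 genes) and endothelium (5 genes) did not exceed 4.30 CPM in any sample, and 1 gene of each of these 3 lists was lower in 393P_ZEB1, with 1 fibroblast gene higher. The sample 393P_vector replicate 3 stood apart. It differed at least 1.5-fold from the other vector samples in 24.0% and 28.2% of the tested genes, while the other pairs within a group differed in between 4.97% and 7.49%. Results for the members are therefore given with and without that sample.

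Promoter sequences show which members hold, close to the start of the gene, a motif that NRF2 could read. RefSeq promoters on GRCm38.p6, from 250 bases before to 50 after a gene's start, were matched for 33 of the 39 members. Gclc, Gsr, Gsta4, Prdx6, Sod3 and Hmox1 were not matched and were not searched for any motif. The ARE core was searched on both strands as TGACNNNGC, and it was found in 8 of those 33 members (24.2%), against 12.4% of all 32851 promoters and 17.2% of the 9748 tested genes with a promoter. The 7 matches that lie before the start are printed with 10 flanking bases on each side, read 5′ to 3′ on the strand that carries the motif, with the motif in capitals, so that members with and without a change in RNA can be compared.
Nfe2l2: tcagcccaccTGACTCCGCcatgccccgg
Gstm5: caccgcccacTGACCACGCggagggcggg
Gclm: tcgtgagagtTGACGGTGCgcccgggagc
Prdx1: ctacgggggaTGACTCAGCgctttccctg
Mgst1: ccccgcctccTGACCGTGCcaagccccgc
Txnrd1: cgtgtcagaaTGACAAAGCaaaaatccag
Sod1: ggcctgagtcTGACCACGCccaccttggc
The Nfe2l2 window (chr2:75704885-75704913, minus strand) lies 240 bases before the start, and that of Gstm5 (chr3:107895802-107895830, plus strand) 42 bases before it. The windows of Gclm (chr3:122245413-122245441), Prdx1 (chr4:116685456-116685484), Mgst1 (chr6:138140461-138140489), Txnrd1 (chr10:82859104-82859132, at an alternative start within the gene) and Sod1 (chr16:90220696-90220724) are on the minus strand of genes that run on the plus strand. The match in Srxn1 lies after the start and is not printed. These genes moved in different ways. With all samples, Prdx1 was higher in 393P_ZEB1, Mgst1 and Txnrd1 were lower, and the other 4 printed did not pass the test. Without 393P_vector replicate 3, Nfe2l2, Gstm5 and Sod1 were also higher (log2 fold changes 0.57, 0.55 and 0.51), as was Srxn1 (0.23). Gclm still did not pass, and the calls of Prdx1, Mgst1 and Txnrd1 were kept. In that fit 26.2% of all features were higher and 26.8% lower. No match was found in the window of Nqo1, the member with the largest change. Bases outside these promoter windows were not searched, so a motif farther from the start of any member would have been missed.

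The E-boxes CAGGTG and CAGGTA, the letters that ZEB1 is known to bind, were searched on both strands of the same promoters. CAGGTG was found in 6 of the 33 members (18.2%), against 6640 of all 32851 promoters and 21.1% of the tested genes with a promoter, and CAGGTA in 6 of 33 (18.2%), against 3929 promoters and 10.3% of those genes. The matches of Gss and Prdx3 are shown because, of the 10 searched members past the threshold, these held either E-box, and that of Nfe2l2 because it overlaps the ARE core on the opposite strand.
Gss: actaagctaaCAGGTAgcatcccgcc
Prdx3: tccaagcattCAGGTAttcaggaggt
Nfe2l2: atggcggagtCAGGTGggctga
Capitals mark the E-box. The windows are chr2:155592942-155592967 for Gss and chr19:60874725-60874750 for Prdx3, both on the minus strand, and chr2:75704892-75704913 on the plus strand for Nfe2l2, where the promoter entry ends 6 bases after the E-box. Gss rose and Prdx3 fell, so these E-boxes stood beside changes in both directions.

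Of the 37 members tested, 5 rose in 393P_ZEB1 (Gclc, Gss, Gpx8, Prdx1 and Nqo1) and 7 fell (Gpx3, Gstp1, Mgst1, Txnrd1, Prdx3, Sod2 and Hmox1) by edgeR's quasi-likelihood test with an adjusted p below 0.05. The other 25 did not pass it. Among all tested features, 18.3% rose, 19.3% fell and 37.6% passed in either direction, and for the members the last share was 32.4%, near that background. In bulk RNA, less RNA per cell and fewer cells that carry it cannot be told apart. The median log2 fold change of the members was -0.14, against -0.02 over all tested features, and that of the members was 0.13 without 393P_vector replicate 3. The calls for Gclc, Gss, Gpx8, Mgst1, Nqo1 and Hmox1 held when each sample was left out in turn, while each of the other 6 was lost in at least 1 of these fits.

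Without 393P_vector replicate 3, 14 members rose and 6 fell, against 26.2% and 26.8% of all 14106 features tested then. Gpx3 was lost, and Nfe2l2, Gstm1, Gstm5, Gstt1, Mgst3, Prdx4, Prdx6, Srxn1 and Sod1 were gained, all of them higher in 393P_ZEB1. The other 11 calls were kept. By separation of the samples, all 393P_ZEB1 values lay above the vector values in 9 tested members and below them in 15, and the groups overlapped in 13. Over all tested features, 26.3% lay above and 26.5% below. An exact permutation test of a single member cannot go below p = 0.1 with 3 samples against 3.

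**Figure D1:**
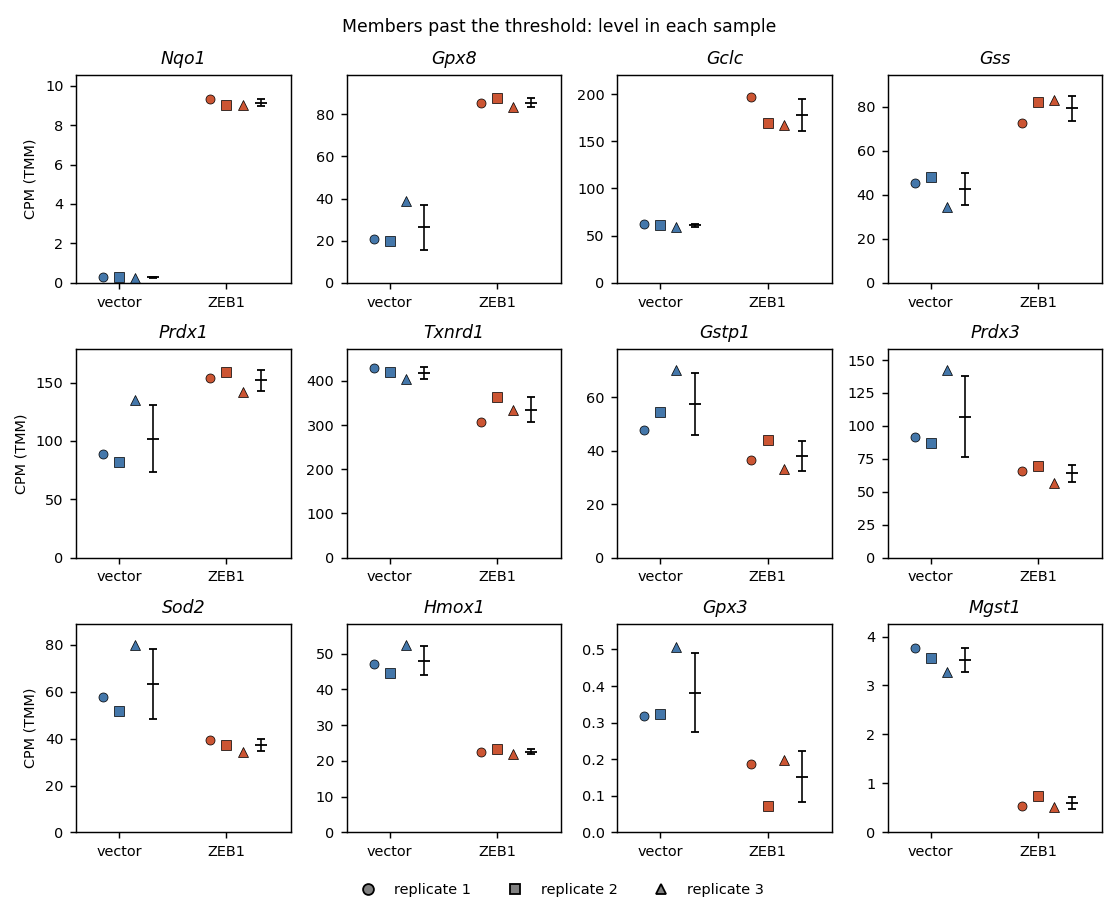
Level in CPM (vertical axis of each panel) of the 12 members that passed the test, with 1 point for each of the 3 samples of 393P_vector and of 393P_ZEB1 and a bar for the mean ± SD. Nqo1 lies between 0.253 and 0.306 CPM in the vector samples and between 9.03 and 9.33 CPM in the 393P_ZEB1 samples, while Txnrd1 differs by a log2 fold change of -0.32.

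The regulators themselves showed small differences. Nfe2l2 (chromosome 2, 75675519 to 75704641, 5 exons), which encodes NRF2, stood at 117, 112 and 169 CPM in 393P_vector replicates 1 to 3 and at 182, 173 and 154 CPM in 393P_ZEB1 replicates 1 to 3. Vector replicate 3 lay between the 393P_ZEB1 samples, so the groups overlapped. The log2 fold change was 0.36 (SE 0.17, 95% interval -0.04 to 0.76, adjusted p = 0.143), and without that sample it was 0.57 (SE 0.09, adjusted p = 0.000329). Keap1 (chromosome 9, 21229730 to 21239332, 9 exons), the adaptor that presents NRF2 for ubiquitination, stood at 66.6, 70.2 and 62.3 CPM in the vector samples and at 54.4, 62.3 and 63.9 CPM in the 393P_ZEB1 samples. These ranges overlapped, with a log2 fold change of -0.14 (95% interval -0.40 to 0.12, adjusted p = 0.355), or -0.18 without vector replicate 3. The median over all tested genes of chromosome 9 was also -0.14.

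Glutathione is made from cysteine, glutamate and glycine by glutamate-cysteine ligase, whose catalytic subunit is Gclc and whose modifier subunit is Gclm, and then by glutathione synthetase (Gss). Gclc (chromosome 9, 77754535 to 77794489, 16 exons) stood at 62.2, 61.6 and 58.9 CPM in 393P_vector and at 197, 169 and 167 CPM in 393P_ZEB1. The lowest 393P_ZEB1 sample lay well above the highest vector sample, and the log2 fold change was 1.55 (SE 0.11, adjusted p = 2.31e-05), a 2.92-fold rise, and 1.52 without vector replicate 3. Of the nearest tested genes, Lrrc1 and Fbxo9 fell (-1.42 and -0.50, adjusted p = 6.88e-05 and 0.0263). Klhl31 and Elovl5 did not pass the test (-1.33 and 0.17). Gclm differed from its partner, with 55.4, 56.4 and 63.9 CPM in the vector samples and 54.2, 52.4 and 48.2 CPM in the 393P_ZEB1 samples. The 393P_ZEB1 values of Gclm were the lower ones throughout, but its log2 fold change of -0.18 (SE 0.11, 95% interval -0.44 to 0.07) did not pass the test (adjusted p = 0.230), nor did that of -0.12 without vector replicate 3.

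The balance of the subunits therefore shifted. Per kilobase of exon, the ratio of Gclc to Gclm was 0.481, 0.468 and 0.395 in the vector samples and 1.56, 1.39 and 1.49 in the 393P_ZEB1 samples, so Gclm was the more abundant mRNA in each vector sample and Gclc in each 393P_ZEB1 sample. This ratio was 1 of 3 computed after the values were seen. Its two-sided exact permutation p was 0.1, or 0.1 after adjustment over the 3 ratios, which is the smallest that 3 samples against 3 allow. Gss rose from 45.2, 48.0 and 34.4 CPM to 72.6, 82.2 and 82.9 CPM, with no overlap and a log2 fold change of 0.90 (SE 0.15, adjusted p = 0.00239), or 0.77 without vector replicate 3. Gsr, which reduces oxidized glutathione with NADPH, had 47.2, 67.1 and 126 CPM in the vector samples and 51.7, 57.2 and 79.0 CPM in the 393P_ZEB1 samples. Its highest and its lowest value were both in vector samples, and the log2 fold change of -0.35 (SE 0.34, adjusted p = 0.453) became 0.13 without vector replicate 3. Summed over these 4 genes, the level per kilobase was 111 ± 14.6 CPM (SD, n = 3) in 393P_vector and 154 ± 2.54 CPM in 393P_ZEB1, and the share of Gclc in it was 16.3% ± 2.49 and 33.9% ± 3.32.

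The glutathione peroxidase family is named for enzymes that use glutathione to reduce peroxides. How far each member here uses glutathione was not measured. Gpx8 (chromosome 13, 113042763 to 113046388, 3 exons), a peroxidase of the endoplasmic reticulum membrane, had 20.7, 19.8 and 38.8 CPM in 393P_vector and 85.4, 87.9 and 83.3 CPM in 393P_ZEB1. Vector replicate 3 was 1.92-fold above the mean of the other vector samples, yet all 393P_ZEB1 samples lay above it. The log2 fold change was 1.69 (SE 0.26, adjusted p = 0.00169), a 3.23-fold rise, and it was 2.08 (SE 0.09) without that sample. Of the nearest tested genes, Ccno, Gzmk and Esm1, each with a group mean under 1 CPM, also rose (log2 fold changes 3.64, 3.23 and 1.34, adjusted p = 0.00184, 0.000244 and 0.0180), while Dhx29 did not pass the test (-0.31, adjusted p = 0.116), and the part of the region in the rise of Gpx8 was not tested. Gpx1, the cytosolic and mitochondrial selenoenzyme, had 43.5, 48.6 and 247 CPM in the vector samples and 25.2, 40.5 and 41.2 CPM in the 393P_ZEB1 samples. A single vector sample set the size of this difference. The log2 fold change of -1.66 (SE 0.65, adjusted p = 0.0825) was -0.37 (adjusted p = 0.178) without vector replicate 3, and it passed the test when vector replicate 1 or 2 was left out (adjusted p = 0.0334 and 0.0390).

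The other peroxidases were scarce. Gpx3, a secreted enzyme, had 0.318, 0.323 and 0.506 CPM in the vector samples and 0.187, 0.072 and 0.197 CPM in the 393P_ZEB1 samples. The groups did not overlap, but the call (log2 fold change -1.33, SE 0.42, adjusted p = 0.0393) was lost when any 1 of the 6 samples was left out, with values from -1.56 to -0.998. Gpx7, another enzyme of the endoplasmic reticulum, did not pass the test (log2 fold change -0.25, adjusted p = 0.312, or -0.26 without vector replicate 3), and its levels did not exceed 2.01 CPM in any sample. Gpx2, known from the gut epithelium, was counted at 0 to 0.0353 CPM, below the level of 3 counts in every sample, and was not tested. Per kilobase of exon, Gpx8 made up 24.8% ± 9.63 of the summed level of these peroxidases in 393P_vector and 70.6% ± 5.45 in 393P_ZEB1, and Gpx1 made up 73.0% ± 10.9 and 28.2% ± 5.40. Gpx1 exceeded Gpx8 in each vector sample, and Gpx8 exceeded Gpx1 in each 393P_ZEB1 sample.

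**Figure D2:**
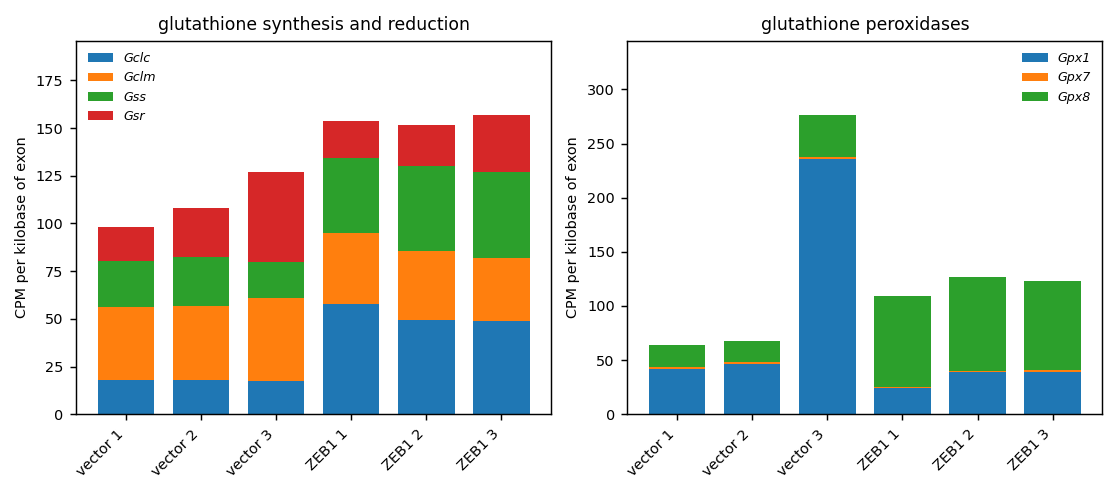
Level in CPM per kilobase of exon (vertical axis, bars from 0) of the glutathione synthesis and reduction genes and of the glutathione peroxidases, stacked by gene for each of the 6 samples (horizontal axis), with the scarce Gpx2 and Gpx3 not drawn. Gpx8 is the larger part of the peroxidase bars in 393P_ZEB1, at a mean of 70.6%, and Gpx1 in 393P_vector, at 73.0%, with the tallest bar in vector replicate 3.

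Glutathione S-transferases couple glutathione to electrophiles, as soluble enzymes (Gst) or as membrane enzymes (Mgst). Of the 10 measured, 2 fell, none rose and 8 did not pass the test, and without vector replicate 3 there were 4 that rose (Gstm1, Gstm5, Gstt1 and Mgst3) and the same 2 that fell. The shares over all tested features were 18.3% higher and 19.3% lower, or 26.2% and 26.8% without that sample. Mgst1 (chromosome 6, 138140537 to 138156752, 4 exons), which also has peroxidase activity, had 3.76, 3.55 and 3.27 CPM in 393P_vector and 0.542, 0.738 and 0.508 CPM in 393P_ZEB1. Each 393P_ZEB1 sample was far below each vector sample, and the log2 fold change was -2.56 (SE 0.21, adjusted p = 6.38e-05), a 5.91-fold fall, and -2.62 without vector replicate 3. Gstp1, a soluble form, had 47.9, 54.5 and 70.3 CPM against 36.7, 44.0 and 33.3 CPM, without overlap. Its log2 fold change was -0.60 (SE 0.17, adjusted p = 0.0300), -0.43 without vector replicate 3, and the call was lost when 393P_ZEB1 replicate 1 or 3 was left out (adjusted p = 0.107 and 0.123). Gstp1 has a near-identical neighbouring copy, so its reads could have been shared.

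The remaining transferases did not pass the test with all samples. Gstm1 had 4.61, 5.12 and 9.26 CPM in the vector samples and 8.11, 10.5 and 8.89 CPM in the 393P_ZEB1 samples, so vector replicate 3 lay within the range of 393P_ZEB1. Its log2 fold change of 0.53 (adjusted p = 0.170) became 0.91 (adjusted p = 0.000554) without that sample, that of Gstm5 went from 0.29 to 0.55, and that of Gstt1, at under 1 CPM in every sample, from 0.50 to 0.80. The opposite held for Mgst3, for which vector replicate 3 was the low sample, at 53.0 CPM beside 87.0 and 95.2 CPM, and its log2 fold change was 0.47 (adjusted p = 0.117), or 0.26 (adjusted p = 0.0366) without it. Gsta4, Gsto1 and Gstm2 were lower in each 393P_ZEB1 sample than in each vector sample, by -0.45, -0.48 and -0.66 on the log2 scale, which did not pass the test (adjusted p = 0.105, 0.0937 and 0.160), and without vector replicate 3 the values were -0.25, -0.25 and -0.64. Mgst2 overlapped, at -0.22, and turned to 0.15 without vector replicate 3. The Gstm genes form a cluster of similar copies, and Gstm5 shares bases with an antisense feature, so with no statement on strand in the counting their single values are uncertain.

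Thioredoxin (Txn1) reduces protein disulfides and passes electrons to peroxiredoxins, and thioredoxin reductases restore it, in the cytosol (Txnrd1) and in mitochondria (Txnrd2). Txn1 resembled Gpx1, with 56.9, 56.1 and 202 CPM in 393P_vector and 36.3, 53.7 and 52.8 CPM in 393P_ZEB1. Vector replicate 3 was again the sample far above the rest, and the log2 fold change of -1.14 (SE 0.49, adjusted p = 0.109) was -0.25 (adjusted p = 0.211) without it and passed the test without vector replicate 2 (adjusted p = 0.0479). Txnrd1, whose product reduces thioredoxin with NADPH, had 430, 420 and 404 CPM in the vector samples and 308, 363 and 335 CPM in the 393P_ZEB1 samples. The groups did not overlap, and the log2 fold change was -0.32 (SE 0.10, adjusted p = 0.0452), or -0.34 without vector replicate 3. This call was lost when any other sample was left out, with adjusted p from 0.0733 to 0.150. The median log2 fold change over all tested genes of chromosome 10, on which Txnrd1 lies, was -0.30, and relative to it Txnrd1 differed by -0.02. The part of this chromosome-wide shift in the result was not tested. Txnrd2 was higher in each 393P_ZEB1 sample (log2 fold change 0.46, adjusted p = 0.0957, or 0.28 without vector replicate 3) and passed the test without vector replicate 2 (adjusted p = 0.0414).

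Most peroxiredoxins, though not all, reduce hydrogen peroxide with electrons from thioredoxin. Sulfiredoxin (Srxn1) repairs such enzymes when they have been over-oxidized. Per kilobase of exon, Prdx2, Prdx5 and Prdx6 were among the 5 highest members in 393P_ZEB1. The summed level of all 7 genes of this group, Srxn1 included, was 680 ± 53.7 CPM in 393P_vector and 717 ± 28.0 CPM in 393P_ZEB1. Of the 7 genes, 1 rose, 1 fell and 5 did not pass the test, beside 18.3% higher and 19.3% lower over all tested features. The cytosolic Prdx1 rose, with 88.9, 82.1 and 135 CPM in the vector samples and 154, 160 and 142 CPM in the 393P_ZEB1 samples, a log2 fold change of 0.57 (SE 0.19, adjusted p = 0.0478). It was 0.83 (adjusted p = 1.71e-05) without vector replicate 3, the vector sample nearest to 393P_ZEB1, and the call was lost when any other sample was left out (adjusted p from 0.0901 to 0.135).

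The mitochondrial Prdx3 moved the other way. It had 91.7, 87.0 and 142 CPM in the vector samples and 65.9, 69.6 and 56.7 CPM in the 393P_ZEB1 samples, with no overlap and a log2 fold change of -0.74 (SE 0.20, adjusted p = 0.0223), or -0.48 (adjusted p = 0.00186) without vector replicate 3. Leaving out any 393P_ZEB1 sample ended this call, with adjusted p from 0.0578 to 0.0938. The ratio of Prdx3 to Prdx1 per kilobase was 1.01, 1.04 and 1.03 in the vector samples and 0.419, 0.428 and 0.392 in the 393P_ZEB1 samples. Vector replicate 3 did not stand apart in this ratio, since both genes were high in it, and the exact permutation p was 0.1 (adjusted 0.1, computed after the values were seen). Prdx4, of the endoplasmic reticulum, and Prdx6 had log2 fold changes of 0.38 and 0.18 that, of the fits with a sample left out, passed the test only in that without vector replicate 3 (0.55 and 0.25, adjusted p = 0.00588 and 0.0321). Srxn1 was higher in each 393P_ZEB1 sample, at 0.31 (adjusted p = 0.0514), or 0.23 (adjusted p = 0.0204) without it. Prdx2 and Prdx5 overlapped between the groups, with log2 fold changes of 0.14 and -0.15, or 0.13 and -0.16 without vector replicate 3. Prdx genes and Txn1 have processed copies elsewhere in the genome, and how reads were divided among them is not stated.

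**Figure D3:**
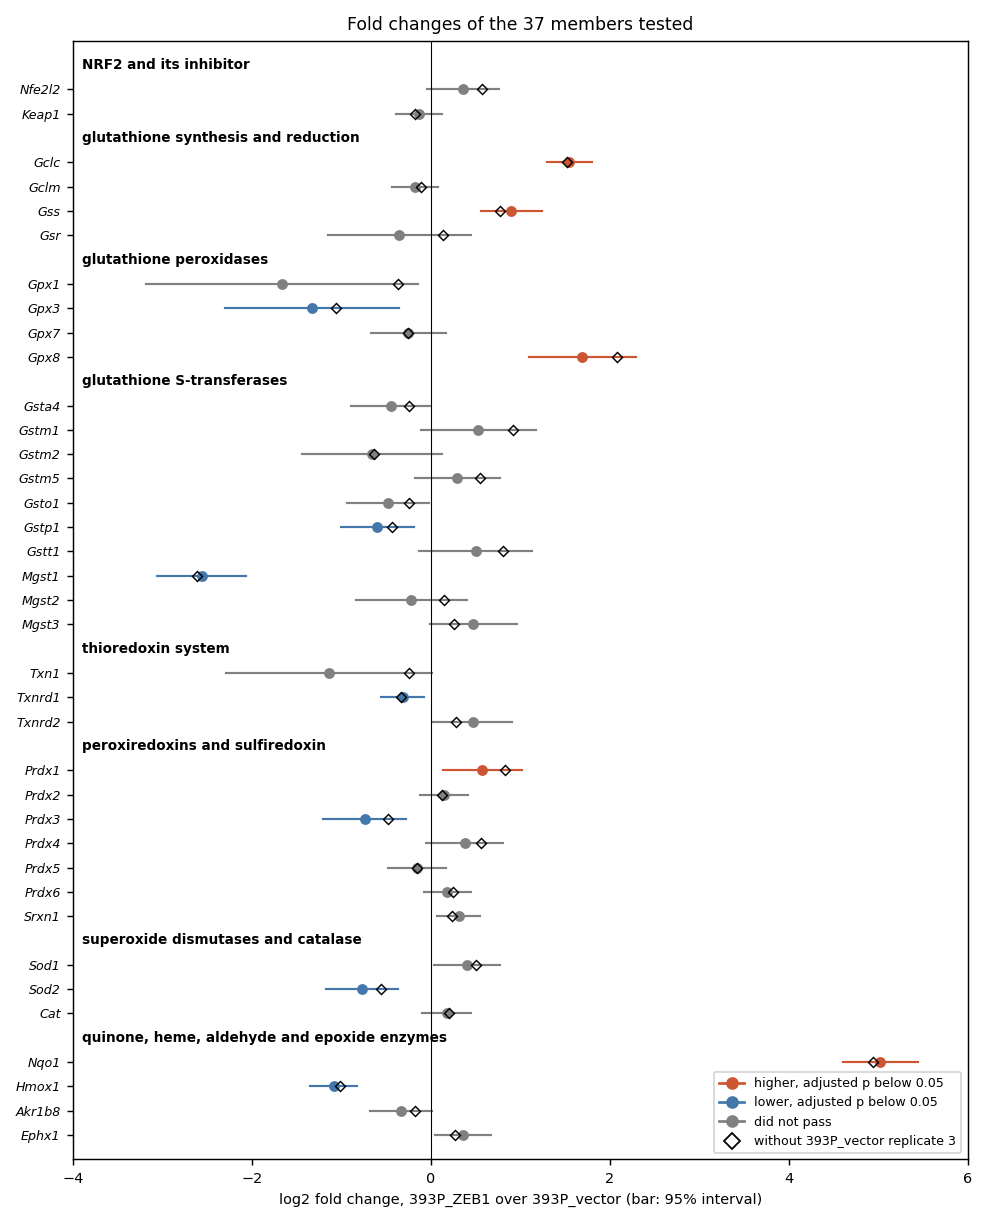
Log2 fold change of 393P_ZEB1 over 393P_vector (horizontal axis) for the 37 tested members (vertical axis), grouped by role, as filled points with 95% intervals from edgeR and as open diamonds when 393P_vector replicate 3 was left out. Nqo1 lies at 5.02 and Mgst1 at -2.56 with or near the diamonds, whereas Gpx1 moves from -1.66 to -0.37 and Txn1 from -1.14 to -0.25.

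Superoxide dismutases turn superoxide into hydrogen peroxide, in the cytosol (Sod1), in mitochondria (Sod2) and outside the cell (Sod3), and catalase (Cat) breaks hydrogen peroxide down in peroxisomes. Sod2 fell, from 57.8, 51.9 and 80.1 CPM in 393P_vector to 39.6, 37.4 and 34.4 CPM in 393P_ZEB1, with no overlap. The log2 fold change was -0.77 (SE 0.17, adjusted p = 0.0106), or -0.56 (adjusted p = 0.00059) without vector replicate 3, and the call was lost without 393P_ZEB1 replicate 3 (adjusted p = 0.0542). Chromosome 17, which holds Sod2, had a median of -0.43 over its tested genes, relative to which Sod2 differed by -0.34, and the part of this shift was not tested.

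Sod1 had 69.0, 72.6 and 87.5 CPM in the vector samples and 80.8, 111 and 110 CPM in the 393P_ZEB1 samples, which overlapped. Its log2 fold change of 0.40 (adjusted p = 0.0850) passed the test without vector replicate 3 (0.51, adjusted p = 0.00972) and without 393P_ZEB1 replicate 1 (0.54, adjusted p = 0.0347), beside a median of 0.25 for chromosome 16. The ratio of Sod2 to Sod1 per kilobase was 0.141, 0.120 and 0.154 in the vector samples and 0.083, 0.057 and 0.052 in the 393P_ZEB1 samples, with no overlap (exact permutation p = 0.1, adjusted 0.1, computed after the values were seen). Cat overlapped between the groups, with a log2 fold change of 0.17 (95% interval -0.10 to 0.45), or 0.20 without vector replicate 3, and Sod3, at no more than 0.159 CPM in any sample, was not tested.

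Nqo1 and Hmox1 are textbook NRF2 targets, and here they moved in opposite directions. Nqo1 (chromosome 8, 107388225 to 107403205, 6 exons), a quinone reductase that uses NADH or NADPH, had 16, 18 and 21 counts in 393P_vector, or 0.283, 0.306 and 0.253 CPM. In 393P_ZEB1 it had 499, 502 and 551 counts, or 9.33, 9.04 and 9.03 CPM. The 3 samples of each group lay close together, vector replicate 3 included. The log2 fold change of 5.02 (SE 0.18, adjusted p = 1.3e-06), a 32.5-fold rise, stayed between 4.94 and 5.09 when each sample was left out in turn. Even so, Nqo1 remained among the scarcer members per kilobase, moving from rank 37 to rank 32 of 39. The nearest tested genes on either side, Nfat5 and Cyb5b before it and Nob1 and Wwp2 after it, had log2 fold changes between -0.07 and 0.16, none past the threshold.

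Hmox1 (chromosome 8, 75093618 to 75100593, 5 exons), which degrades heme, had 47.1, 44.5 and 52.4 CPM in the vector samples and 22.6, 23.4 and 21.8 CPM in the 393P_ZEB1 samples. All 393P_ZEB1 values were well below all vector values, with a log2 fold change of -1.09 (SE 0.11, adjusted p = 0.000208), a 2.13-fold fall, or -1.02 without vector replicate 3. Of its nearest tested genes, Mcm5 also fell (-0.64, adjusted p = 0.0188). Tom1, Hmgxb4 and Nr3c2 did not pass the test (-0.31, 0.17 and 0.25), and the part of the region in the fall of Hmox1 was not tested. Akr1b8, an aldo-keto reductase, was lower in each 393P_ZEB1 sample at 35.3, 35.2 and 38.3 CPM against 38.7, 43.3 and 55.2 CPM, but did not pass the test (log2 fold change -0.33, adjusted p = 0.117, or -0.18 without vector replicate 3), beside a median of -0.36 for chromosome 6. Ephx1, the microsomal epoxide hydrolase, was higher in each 393P_ZEB1 sample at 15.5, 16.2 and 14.97 CPM against 13.5, 12.4 and 10.6 CPM, with a log2 fold change of 0.35 that did not pass either (adjusted p = 0.0757), or 0.26 without vector replicate 3. Both Ephx1 and Srxn1 passed with DESeq2 (adjusted p = 0.0420 and 0.0320) and with limma voom (0.0335 and 0.00602). With a sample left out in edgeR, however, Ephx1 passed in 0 of 6 fits and Srxn1 in 1.

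Vector replicate 3 was high in this gene group more than it was low. It exceeded the mean of vector replicates 1 and 2 at least 1.5-fold in 12 of the 37 tested members (32.4%), against 14.3% of all tested genes, and lay as far below in 2 (5.4%, Mgst3 and Txnrd2), against 13.2%. These shares are descriptions of 1 sample, without a test. The ratio was 5.35 for Gpx1, 3.57 for Txn1, 2.20 for Gsr, 1.92 for Gpx8 and 1.90 for Gstm1. Vector replicates 1 and 2 differed 1.5-fold in 0 of the 37 members, and pairs of 393P_ZEB1 samples in 1 to 3.

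**Figure D4:**
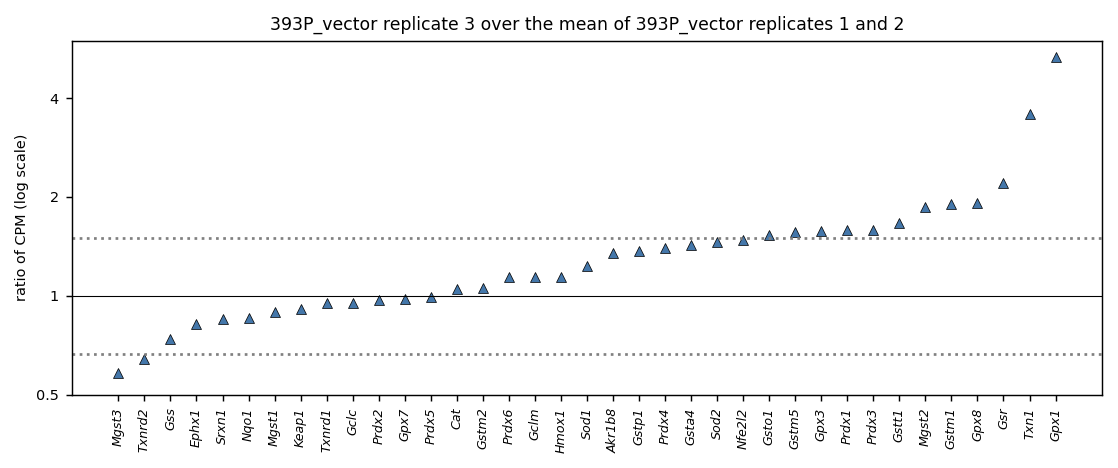
Level of each tested member in 393P_vector replicate 3 divided by the mean of vector replicates 1 and 2 (logarithmic axis), with dotted lines at 1.5-fold above and below. The 12 members beyond the upper line are led by Gpx1 at 5.35 and Txn1 at 3.57, and 2 lie beyond the lower line.

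Other genes of the NRF2 and redox pathways were taken from lists of 14 NRF2 regulators, 38 further NRF2 targets, 44 further enzymes of glutathione and thioredoxin, and 16 sources of superoxide. Of the 87 that were tested, 25 rose and 17 fell (48.3% in either direction, against 37.6% of all tested features), with no call lost and 16 gained without vector replicate 3. Among the 14 regulators, 4 rose and 2 fell, beside 18.3% and 19.3% of all tested features. Nfe2l3, a factor related to NRF2, fell from 13.7, 15.6 and 20.4 CPM to 0.692, 0.558 and 0.540 CPM, a log2 fold change of -4.79 (SE 0.23, adjusted p = 4.26e-06). Rbx1, a subunit of the ubiquitin ligase that acts with KEAP1, had -1.10 (adjusted p = 0.0199, or -0.71 without vector replicate 3), beside a median of -0.33 for chromosome 15. Its call was lost in 3 of the 6 fits that left out a sample. Bach1, a repressor at AREs, Nfe2l1, a relative of NRF2, and Sqstm1, which sequesters KEAP1, were higher by 0.51, 0.53 and 0.46 on the log2 scale (adjusted p = 0.0177, 0.0414 and 0.0351), each lost in 3 or more of the 6 fits that left out a sample. The medians over all tested genes were 0.25 for chromosome 16 (Bach1) and 0.27 for chromosome 11 (Nfe2l1 and Sqstm1). The part of these chromosome-wide shifts was not tested.

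Among the 35 further NRF2 targets that were tested, 13 rose and 5 fell (51.4% in either direction), beside 18.3% and 19.3% of all tested features, and the median log2 fold change was 0.37. Aldh1a1, a retinaldehyde dehydrogenase, rose from 11.1, 10.8 and 10.5 CPM to 97.2, 87.1 and 91.7 CPM (log2 fold change 3.09, SE 0.11, adjusted p = 1.19e-06), and the aldo-keto reductase Akr1c13 and Pir rose by 1.75 and 1.19. Osgin1 fell from 40.3, 42.8 and 53.3 CPM to 10.5, 14.1 and 14.4 CPM (log2 fold change -1.81, SE 0.17, adjusted p = 0.000155), as did the aldehyde dehydrogenase Aldh3a1 (-0.89) and the exporter Abcc3 (-0.71). Recognized NRF2 targets outside the 39 thus also moved both ways, as Nqo1 and Hmox1 did, with more rises than falls. Without 393P_vector replicate 3, 18 of the 35 rose and 6 fell, beside 26.2% and 26.8% of all features tested then.

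Of the 31 further glutathione and thioredoxin enzymes that were tested, 7 rose and 8 fell (48.4% in either direction), beside the same 18.3% and 19.3%. Among those with a mean of at least 5 CPM and separated groups, the largest rises were those of Oxr1, an oxidation resistance protein (log2 fold change 1.69, adjusted p = 6.72e-05), Msrb2, a mitochondrial methionine sulfoxide reductase (1.87, adjusted p = 0.00025), and Txnl1, a thioredoxin-like protein (0.64, equal to the median of 0.64 over its chromosome). The mitochondrial thioredoxin Txn2, the partner of Txnrd2 and Prdx3, fell from 177, 179 and 203 CPM to 87.8, 87.3 and 98.3 CPM, with a log2 fold change of -1.03 (SE 0.11, adjusted p = 0.000211), beside a median of -0.33 for chromosome 15. Glrx5, a mitochondrial glutaredoxin, fell by 0.65 on the log2 scale and Msrb3 by 0.52, calls that were lost in 2 and 4 of the 6 fits that left out a sample. No listed superoxide source that passed the test reached a mean of 5 CPM.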

How the data were processed

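SOLiD sequencing of total RNA was used for 6 transfectant samples. For each of them the authors deposited, for every RefSeq feature, the raw count of reads, the exon length and an RPKM (the count scaled by exon length and total reads). The aligner, the counting program and its use of strand are not given in the sources used here, and coordinates match GRCm38. Counts were tested with edgeR 4.0.16 in R 4.3.3 (filterByExpr with a minimum count of 10, TMM, robust quasi-likelihood fit, no replicate block), with Benjamini-Hochberg adjustment over all 13892 features and a threshold of 0.05. SE and 95% intervals come from that fit. The biological coefficient of variation was 0.184. CPM used TMM-scaled library sizes, with 1000 bases of the deposited exon length for levels per kilobase, and the deposited RPKM were not used further. Limits given as 3 counts cover counting error only. The fit was tested on simulated data.

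All 39 members are named. From each further list, up to 3 rises and 3 falls were named among genes past the threshold, with separated groups and at least 5 CPM on average. The members and lists were chosen with earlier results of these data known. Alternatives were DESeq2 1.42.0 (its Wald test, and its size factors within edgeR), limma 3.58.1 (voom with sample weights), no filter, at least 10 counts in every sample, a replicate block, a test against a 1.5-fold change, a threshold of 0.01, removal of the 10 most counted genes, centring by chromosome, and leaving out each sample. Tables and plots were made in Python 3.11.15 (pandas 2.3.3, matplotlib 3.10.9, SciPy 1.17.1, NumPy 2.4.6).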

Additional observations from a re-analysis of the deposited data

How the results depend on the processing

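Counts of calls depended on the test, the threshold and single samples. Voom with sample weights gave 3971 features higher and 4100 lower in 393P_ZEB1 and 16 members higher, the test against a 1.5-fold change gave 1081 and 1118 features, 3 and 2 members and 10 and 7 genes of the further lists, and a threshold of 0.01 gave 1584 and 1545 features, 2 members lower and 14 and 9 genes of the further lists. Leaving out each sample in turn gave 1861 to 3700 features higher and 1784 to 3776 lower, 4 to 14 members higher and 2 to 7 lower, and 16 to 35 genes of the further lists higher and 10 to 24 lower. Of the fits with a sample left out, that without 393P_vector replicate 3 gave the most members higher, and the lowest count of members lower was that without 393P_ZEB1 replicate 3, followed by 3 without replicate 1 and 4 without replicate 2 of that group. Gsr (0.23 with voom, -0.62 to 0.13 with a sample left out) and Mgst2 (0.14, and -0.40 to 0.15) changed direction. For these counts the cause was not tested, beyond the fewer samples of the fits that left one out. Of 590 values of members under the alternatives, 511 kept their direction and their side of the threshold, 40 lost and 27 gained the call, and 17 of 37 members did so in every fit with a sample left out. Equal replicate numbers did not pair the samples: the deviations of equal numbers correlated at 0.298, -0.227 and -0.042, and those of unequal numbers at -0.198 to 0.238, and not every sample correlated best with its own number. With the replicate block, 4 members were higher and 5 lower, beside 2180 and 2256 of all features. In that edgeR fit Gstp1, Txnrd1 and Prdx1 had adjusted p of 0.0554, 0.106 and 0.0558. Depth did not allow a test of Gpx2 and Sod3.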

Other observations

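Ggt1, the surface enzyme that starts the breakdown of extracellular glutathione, fell from 133, 130 and 192 counts in 393P_vector to 6, 0 and 4 counts in 393P_ZEB1, or from 2.35, 2.21 and 2.31 CPM to 0.112, 0 and 0.0655 CPM. The log2 fold change was -5.23 (SE 0.52, adjusted p = 0.000189, edgeR), it was -5.23 without 393P_vector replicate 3, and the call held in all 6 fits that left out a sample. Ggt1 was below the naming limit of 5 CPM and was chosen after its values were seen. Slc7a11, the cystine transporter that supplies cysteine for glutathione and a known NRF2 target, had 37.7, 34.1 and 47.5 CPM in 393P_vector and 74.1, 65.5 and 60.3 CPM in 393P_ZEB1, a log2 fold change of 0.74 (SE 0.15, adjusted p = 0.00713). It was also chosen after its values were seen. Gpx4, which reduces lipid peroxides, had a log2 fold change of -0.24 (95% interval -0.56 to 0.07, adjusted p = 0.196), or -0.34 (adjusted p = 0.0174) without vector replicate 3, on a chromosome with a median of -0.30.

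Of 16 NADPH oxidase genes and other superoxide sources, 7 had enough reads to be tested. Beside 18.3% of all tested features that rose and 19.3% that fell, 1 of them rose and 2 fell. These were Noxo1 (0.42 ± 0.06 CPM in 393P_vector and 0.83 ± 0.17 CPM in 393P_ZEB1, SD, n = 3), Duox1 (0.37 ± 0.07 and 0.07 ± 0.03 CPM) and Duoxa1 (0.28 ± 0.07 and 0.06 ± 0.06 CPM), all at low levels and named after their values were seen. When each sample was left out in turn, Duox1 passed in all 6 fits, Noxo1 in 3 and Duoxa1 in 2. Beside Mgst1 on chromosome 6, the next tested genes at lower coordinates, Dera and Strap, were also lower in 393P_ZEB1 (log2 fold change -1.09 and -0.69, adjusted p = 0.000700 and 0.0166), and the chromosome's median was -0.36. Plekha5, on the other side, was higher (0.57, adjusted p = 0.0115), and the part of the region in the fall of Mgst1 was not tested.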
